A study of Rattus norvegicus with 12 samples.

Results

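The tricarboxylic acid (TCA) cycle of the mitochondrion and the step that feeds pyruvate into it were followed through 9 genes in rat laryngeal muscle after nerve transection. The genes were a list chosen by name, with earlier results of these data known. They were the pyruvate dehydrogenase subunits Pdha1 and Dld, the pyruvate dehydrogenase kinases Pdk4 and Pdk2, and the cycle enzymes Cs, Idh3a, Ogdh, Sdha and Mdh2. All 9 were found among the 14329 genes that could be tested. Cs and Pdha1 each had 2 probe sets, of which the brighter was used, and the other genes had 1. Below, the 7 enzyme genes are the list without the kinases.

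The muscles came from male F344 rats, all anaesthetised with ketamine and xylazine. The 4 groups of 3 arrays each were PCA injury, PCA control, AC injury and AC control. PCA is the posterior cricoarytenoid muscle, which abducts the vocal folds, and AC is the laryngeal adductor complex, which closes them. Injured rats had 1 cm of the recurrent laryngeal nerve taken out on one side and were killed 1 week later, and controls had the same approach with the nerve spared. Each surgery group had 10 animals per the labels. The labels do not say whether an array stands for 1 animal or a pool, or whether the PCA and AC arrays come from shared animals. Every p-value here therefore rests on array-to-array variation that could be technical. Values are deposited log2 expression values (a step of 1 is a doubling), and differences are given as log2 difference ± standard error from limma, injury minus control unless stated.

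Pyruvate made by glycolysis enters the mitochondrion and is turned into acetyl-CoA by the pyruvate dehydrogenase complex, whose E1 and E3 components need Pdha1 and Dld. Pdk kinases phosphorylate the E1 subunit and switch the complex off, Pdp phosphatases switch it on again, and Pdk4 is the kinase known to be induced in muscle by fasting and fatty acids. Citrate synthase (Cs) condenses acetyl-CoA with oxaloacetate, and isocitrate dehydrogenase (Idh3a), oxoglutarate dehydrogenase (Ogdh, which also uses Dld), succinate dehydrogenase (Sdha) and malate dehydrogenase (Mdh2) carry the carbon round to oxaloacetate. Sdha is also part of respiratory complex II. Muscle rich in mitochondria is known to hold much of these enzymes.

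The specimens carried muscle transcripts throughout. The mean log2 value of 10 muscle structure genes, among them Ttn (titin), was 11.01 to 11.91 on the 12 arrays, against array medians of 7.11 to 7.17. Other tissues were present as well. The mean over 5 squamous epithelium markers was 11.38 to 12.41 on all arrays but the PCA controls, where it was 8.67, 10.85 and 7.55. Thyroid and parathyroid markers stood high on 3 arrays (PCA injury 2 at 9.96, PCA control 1 at 10.16 and AC injury 2 at 8.77) and between 6.08 and 7.23 on the others. In such bulk tissue, fewer cells of a type and less RNA per cell cannot be told apart.

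In injured PCA all 9 genes fell relative to PCA controls. Of all genes tested, 12.5% fell in this comparison (limma, Benjamini-Hochberg adjusted p under 0.05). The median log2 difference of the 9 was -0.81, against -0.03 over all genes, and the single differences ran from -1.16 for Pdk4 to -0.50 for Cs. On the linear scale that is 44.6% of the control level for Pdk4 and 70.7% for Cs. For each of the 9 all 3 injured arrays lay below all 3 controls, as they did for 18.8% of all genes.

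The genes of pyruvate entry are taken first. Pdha1, the catalytic subunit of the complex that the kinases phosphorylate, stood at 9.80, 10.02 and 10.31 in injured PCA, against 10.79, 10.89 and 10.87 in PCA controls. The control arrays lay within 0.10 of each other, whereas the injured ones spread over 0.51. Pdha1 fell by 0.81 ± 0.12 (adjusted p = 0.00117). Its second probe set moved with the first, 0.04 to 0.07 lower on every array, and gave -0.82 ± 0.12, and it is not counted as a second measurement. Dld, the E3 subunit shared with oxoglutarate dehydrogenase, was at 8.27, 8.63 and 8.75 in injured PCA and at 9.40, 9.46 and 9.53 in PCA controls. It had the smallest p of the 7 enzyme genes and fell by 0.91 ± 0.11 (adjusted p = 0.000461), to 53.1% of the control level.

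The kinase genes fell as well, and unequally. Pdk4 was at 10.21, 10.19 and 10.57 in injured PCA, against 11.58, 11.56 and 11.32 in PCA controls, which leaves a gap of 0.75 between the groups. It fell by 1.16 ± 0.14 (adjusted p = 0.000394), and 124 of the 14329 genes, itself included, had a difference at least as low. Pdk2, the kinase form found in most tissues, was at 10.03, 10.61 and 11 in injured PCA and at 11.08, 11.25 and 11.02 in PCA controls. Its groups came within 0.02 of each other. Pdk2 fell by 0.57 ± 0.19 with an adjusted p of 0.0489, and only 7 of the 26 alternative settings kept it past the threshold. Over those 26 settings its adjusted p was 0.00506 to 0.67. Without PCA injury 1, the lowest array, its difference was -0.31 ± 0.13.

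Of the cycle enzymes, Idh3a, the catalytic subunit of the NAD-dependent isocitrate dehydrogenase, had the largest fall. It was at 9.67, 9.74 and 10.54 in injured PCA, against 10.83, 10.96 and 11.01 in PCA controls, so that 2 injured arrays lay more than 1 unit below every control and the last one 0.29 below the lowest. Idh3a fell by 0.95 ± 0.18 (adjusted p = 0.00368). Sdha, the flavoprotein subunit of succinate dehydrogenase, was at 9.69, 9.97 and 10.44 in injured PCA and at 10.93, 10.88 and 10.95 in PCA controls, and fell by 0.89 ± 0.16 (adjusted p = 0.00264). Its controls were the tightest of the 9 genes, with an SD of 0.04, against 0.38 in injured PCA.

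The remaining cycle enzymes fell less. Ogdh was at 10.91, 11.19 and 11.37 in injured PCA, against 11.70, 11.84 and 11.67 in PCA controls, and fell by 0.58 ± 0.12 (adjusted p = 0.0045). Mdh2, the malate dehydrogenase of the mitochondrial matrix, was at 11.68, 11.88 and 12.13 in injured PCA and at 12.36, 12.55 and 12.46 in PCA controls, and fell by 0.56 ± 0.12 (adjusted p = 0.00693). Cs, whose activity is a common measure of mitochondrial content, was at 10.77, 11 and 11.20 in injured PCA, against 11.43, 11.66 and 11.38 in PCA controls. It fell by 0.50 ± 0.13 (adjusted p = 0.0136). The dimmer probe set of Cs showed a smaller difference of -0.27 ± 0.09. The 95% confidence interval of Cs, -0.77 to -0.23, did not overlap that of Pdk4, -1.47 to -0.86, whereas the intervals of the other 7 genes overlapped that of Cs.

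**Figure D1:**
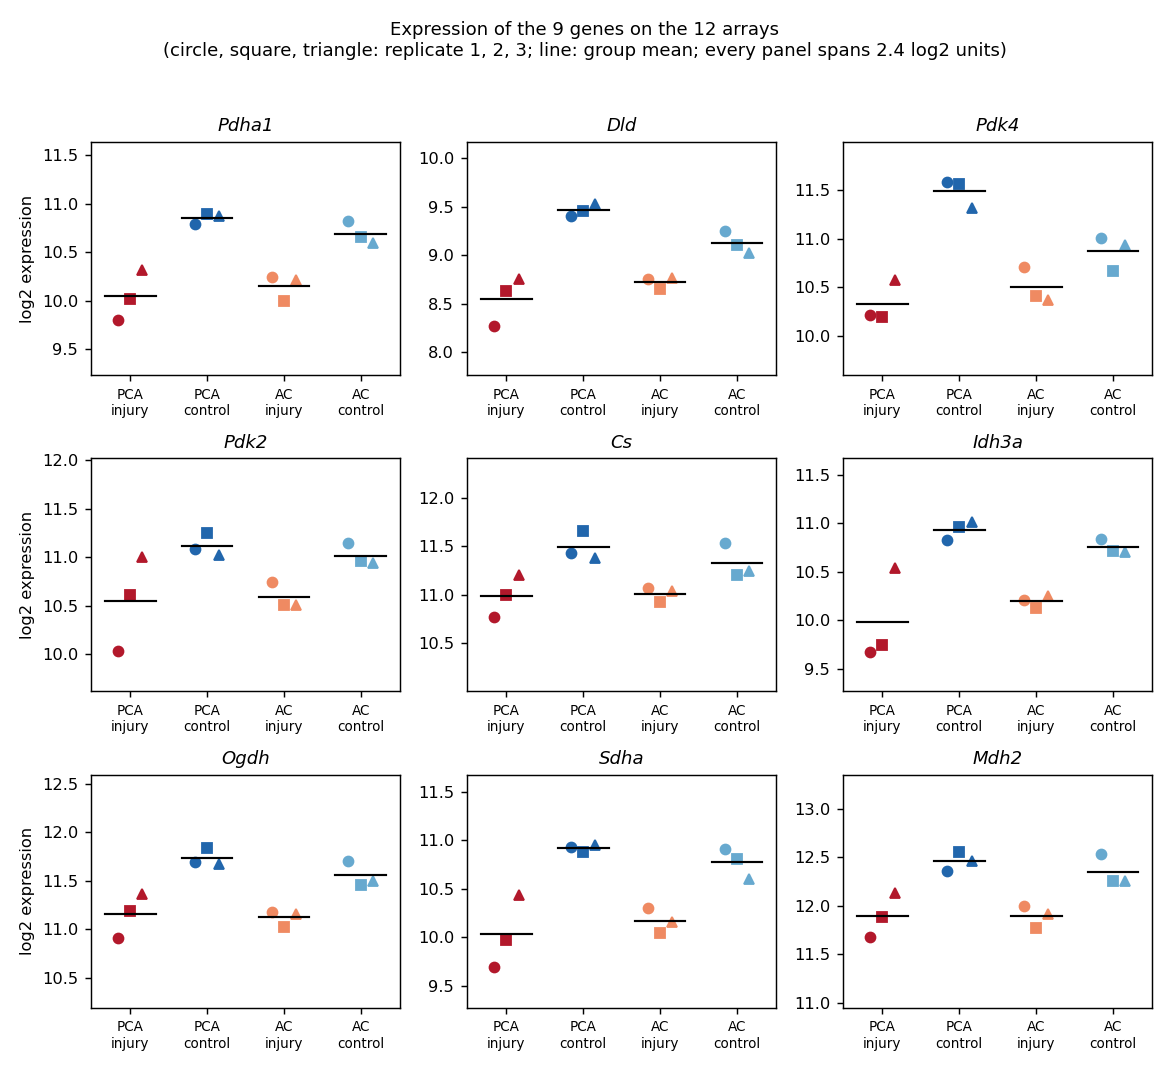
Log2 expression (y axis) of the 9 genes on the 12 arrays, by group (x axis: PCA injury, PCA control, AC injury, AC control), with 1 point per array and a line at the group mean. In every panel the 3 injured PCA arrays lie below the 3 PCA controls, and the triangle of PCA injury 3 is the highest of its group for all 9 genes.

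The injured PCA arrays differed among themselves in nearly the same order from gene to gene. PCA injury 3 was the highest of its group for 9 of 9 genes, and PCA injury 1 the lowest for 8 of 9. The mean over the 7 enzyme genes was 10.11, 10.35 and 10.68 on PCA injury 1, 2 and 3, against 11.06 to 11.18 in PCA controls. Muscle structure genes followed the same order among the injured arrays, at 11.01, 11.22 and 11.63, against 11.64 to 11.91 in PCA controls. Without PCA injury 3, Idh3a differed by -1.23 and Sdha by -1.09, the lowest values for these genes with any single array left out. Leaving out any single array kept between 7 and 9 of the 9 genes past the threshold. The 2 that missed it without PCA injury 1 were Cs and Pdk2. With only the PCA arrays in the fit 7 of the 9 passed, and 994 of the 14329 genes fell. The 2 lost were again Cs (limma adjusted p = 0.0505) and Pdk2 (0.148). The standard error of Idh3a was then 0.23, against 0.18 with all arrays.

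Markers of other tissues also differed between injured and control PCA. For fat, squamous epithelium and cartilage the PCA controls stood apart from all other groups, both AC groups included. Squamous means were 9.02 in PCA controls, against 11.75 in injured PCA, 11.83 in injured AC and 12.14 in AC controls. An effect of the injury and a difference in specimen content cannot be told apart here. The part of macrophages, fibroblasts, Schwann cells and cartilage in the falls was not tested. Fat and squamous epithelium were entered as covariates, but their means did not overlap between injured and control PCA. Such a covariate can hardly be told apart from the injury, so these fits do not settle the part of either tissue. The mean over 10 macrophage markers was 10.06 to 10.40 in injured PCA, against 8.26 to 9.0 in PCA controls, and 9 of the 10 rose. The 9 adipocyte markers were of white and brown fat. Their mean was 7.24 to 7.92 in injured PCA and 8.57 to 9.01 in PCA controls, and 8 of the 9 fell. All 5 squamous epithelium markers rose (mean 11.38 to 11.97 in injured PCA, against 7.55 to 10.85 in PCA controls), and all 9 cartilage markers fell (mean 8.21 to 8.58 in injured PCA, against 9.42 to 10.15 in PCA controls). The mean over 7 fibroblast markers was 11.41 to 11.78 in injured PCA and 10.46 to 10.98 in PCA controls, and 5 of the 7 rose. The mean over 4 Schwann cell markers was 7.63 to 7.79 in injured PCA and 8.14 to 8.23 in PCA controls, and 2 of the 4 fell. Red cell and endothelial means overlapped between these groups. Of the 10 muscle structure genes 6 fell, with Ttn at -0.59 ± 0.09, Myom1, a protein of the sarcomere's M-band, at -0.99 ± 0.23 and Trdn, the triad protein triadin, at -0.72 ± 0.18. With the adipocyte mean of each array as a covariate none of the 9 genes passed limma, and over all genes 1 rose and 4 fell. At an unadjusted p under 0.05 limma called 6 of the 9, without a share of all genes taken at that p. The differences of the 9 then ran from -1.37 for Pdk4 to -0.47 for Pdk2 and Cs, and the standard errors were wider (0.31 for Pdk4, against 0.14). With the squamous mean as the covariate 5 of the 9 passed, against 1.17% of all genes in the lower direction. All 9 differences were then larger in size, also for the 4 genes without a call, Idh3a at -1.06 ± 0.32, Sdha at -0.97 ± 0.28, Mdh2 at -0.77 ± 0.20 and Pdk2 at -0.93 ± 0.31, and the standard errors were wider.

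Measured against the muscle structure genes of the same array, every fall was smaller by the same amount, because that list's mean was also lower. On that scale, which shifts the median of all genes in this comparison to 0.47, Pdk4 differed by -0.67 ± 0.16, Idh3a by -0.46 ± 0.15, Dld by -0.42 ± 0.15 and Sdha by -0.39 ± 0.15. These 4 of 9 genes stayed past the threshold (adjusted p of 0.0047, 0.025, 0.0325 and 0.0432), as did 1.56% of all genes in the lower direction. Pdha1 was at -0.31 ± 0.14, and Cs, Mdh2, Pdk2 and Ogdh lay between -0.09 and -0.01. Measured against 17 genes of mitochondrial structure and import, 6 of 9 stayed past it, against 3.64% of all genes, with Pdk4 at -0.84 ± 0.12 and Idh3a at -0.63 ± 0.13. Those mitochondrial genes had themselves a median of -0.27 in injured PCA, where 9 of 17 fell, among them Chchd3 and Immt, which shape the inner membrane (-0.75 ± 0.12 and -0.56 ± 0.09), Vdac1, an outer membrane channel (-0.56 ± 0.16), and the chaperone Hspa9 (-0.62 ± 0.11). The import receptor Tomm22 rose (0.24 ± 0.08) and was named after its value was seen.

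**Figure D2:**
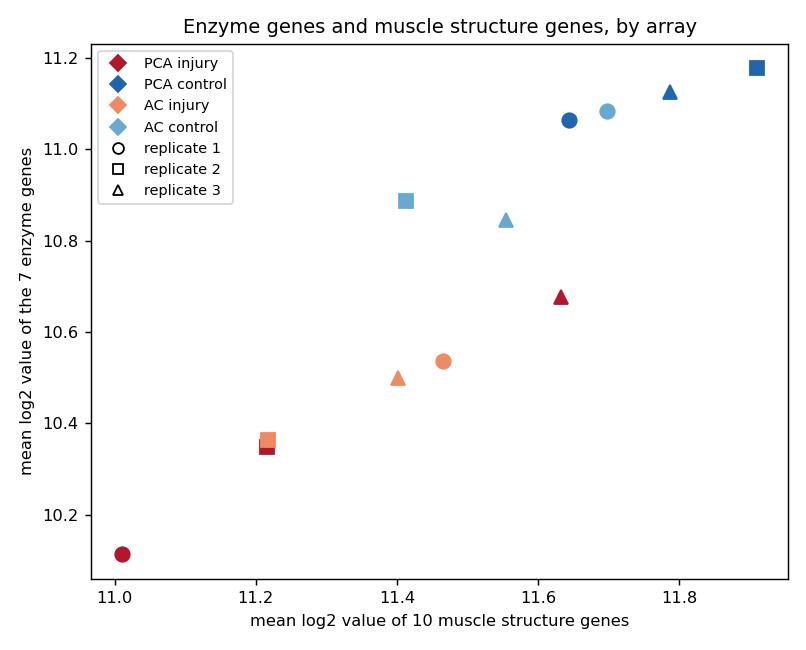
Mean log2 value of the 7 enzyme genes (y axis) against that of 10 muscle structure genes (x axis), 1 point per array, with colour for the group and shape for the replicate. PCA injury 3 (11.63 on the x axis) and PCA control 1 (11.64) hold nearly the same muscle level, with enzyme levels of 10.68 and 11.06.

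The 2 pairs below are examples of arrays with nearby muscle structure levels. In any pair from 1 muscle the injured array held the lower enzyme mean. PCA injury 3 and PCA control 1 had muscle levels of 11.63 and 11.64 and enzyme means of 10.68 and 11.06. AC injury 1 and AC control 2 had muscle levels of 11.47 and 11.41 and enzyme means of 10.54 and 10.89. AC injury 3, with a muscle level of 11.40 and an enzyme mean of 10.50, lay nearer still to AC control 2. Such pairs set 1 array against 1 and are no test. The enzyme mean minus the muscle mean was -0.91 ± 0.04 in injured PCA and -0.66 ± 0.08 in PCA controls, and -0.895 ± 0.04 in injured AC and -0.62 ± 0.09 in AC controls (SD, n = 3 each). Relative to muscle structure genes, 0 of the 9 genes passed limma in the AC, against 0.188% of all genes that fell there. At an unadjusted p under 0.05 3 of the 9 were lower, without a share of all genes taken at that p.

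In the AC all 9 genes had lower means after injury, as did 45.9% of all genes, but none passed the test over all genes. At an unadjusted p under 0.05 limma called 9 of 9 lower, against 8.93% of all genes, and past the adjusted threshold 0.761% of all genes fell and 1.15% rose. The median of the 9 was -0.43, against 0.02 over all genes. For 8 of the 9, Pdk4 being the exception, the 3 injured arrays lay below the 3 controls, as for 13.1% of all genes. With only the AC arrays in the fit, 5 of 9 passed (Idh3a, Ogdh, Sdha, Dld and Pdha1), against 2.04% of all genes in the lower direction. The same number passed without PCA injury 1 (against 1.9% of all genes) or without PCA injury 3 (against 2.27%), arrays that bear on this comparison solely through the pooled variance, and 6 of 9 with array weights, against 2.16% of all genes.

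Among the pyruvate entry genes, Pdha1 was at 10.24, 10 and 10.21 in injured AC and at 10.82, 10.65 and 10.59 in AC controls. Its difference of -0.54 ± 0.12 was the nearest of the 9 to the threshold (adjusted p = 0.0518, and 0.0199 to 0.284 over 26 alternatives). Dld was at 8.75, 8.65 and 8.76 in injured AC, against 9.25, 9.11 and 9.02 in AC controls, a difference of -0.41 ± 0.11 (adjusted p = 0.0863). Both genes thus had groups that did not overlap. Pdk4 was at 10.71, 10.41 and 10.37 in injured AC and at 11.01, 10.67 and 10.93 in AC controls. AC injury 1 lay above AC control 2, and the difference was -0.37 ± 0.14 (adjusted p = 0.161). Pdk2 was at 10.74, 10.51 and 10.51 in injured AC, against 11.14, 10.96 and 10.94 in AC controls (-0.43 ± 0.19, adjusted p = 0.242).

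The largest AC difference among the cycle enzymes was that of Sdha, at 10.30, 10.04 and 10.16 in injured AC and 10.91, 10.81 and 10.60 in AC controls (-0.61 ± 0.16, adjusted p = 0.0749). Idh3a followed, at 10.21, 10.13 and 10.25 in injured AC, against 10.84, 10.71 and 10.70 in AC controls (-0.55 ± 0.18, adjusted p = 0.126). Its AC groups were tight, with SDs of 0.06 and 0.08, and the pooled standard error also holds the injured PCA arrays, where the SD was 0.48. With the AC arrays alone the standard error was 0.08 and the adjusted p 0.0201. Mdh2 was at 12, 11.77 and 11.92 in injured AC and at 12.53, 12.26 and 12.25 in AC controls (-0.45 ± 0.12, adjusted p = 0.0809). Ogdh was at 11.18, 11.03 and 11.16 in injured AC, against 11.71, 11.46 and 11.50 in AC controls (-0.43 ± 0.12, adjusted p = 0.0775). Cs had the smallest difference here as in PCA, at 11.07, 10.93 and 11.04 in injured AC and 11.53, 11.20 and 11.25 in AC controls (-0.31 ± 0.13, adjusted p = 0.192). The dimmer Cs probe set showed -0.04 ± 0.09.

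In the AC the markers of fat, squamous epithelium and cartilage overlapped between the groups. The adipocyte mean was 7.17 to 7.80 in injured AC and 7.35 to 7.46 in AC controls, and the cartilage mean 8.40 to 8.90 in injured AC and 8.36 to 9.11 in AC controls. The squamous mean was 11.57 to 12.02 in injured AC and 11.96 to 12.41 in AC controls. No marker of these lists passed limma there (0 of 9, 0 of 9 and 0 of 5, with 0, 1 and 0 at an unadjusted p under 0.05). Macrophage markers were higher in injured AC (9.87 to 10.30, against 9.21 to 9.48 in AC controls), and 3 of 10 rose. The red cell mean over 4 markers was 7.53 to 8.33 in injured AC and 8.92 to 9.75 in AC controls, and 2 of the 4 fell. Ahsp, a chaperone of haemoglobin, fell by 2.64 ± 0.34 on the log2 scale, and Slc4a1, the anion exchanger of the red cell membrane, fell by 1.30 ± 0.24. The fibroblast mean was 11.39 to 11.70 in injured AC and 10.82 to 11.27 in AC controls, and 1 of 7 markers rose. The Schwann cell mean was 7.63 to 7.90 in injured AC and 8.07 to 8.23 in AC controls, where 0 of 4 markers passed limma and 4 were lower at an unadjusted p under 0.05. The endothelial mean was 9.63 to 9.76 in injured AC and 9.44 to 9.50 in AC controls, with 0 of 3 called by limma and 1 higher at an unadjusted p under 0.05. The part of these cells in the AC differences was not tested. The muscle structure mean was 11.22 to 11.47 in injured AC and 11.41 to 11.70 in AC controls, and 0 of its 10 genes passed limma (2 lower at an unadjusted p under 0.05).

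**Figure D3:**
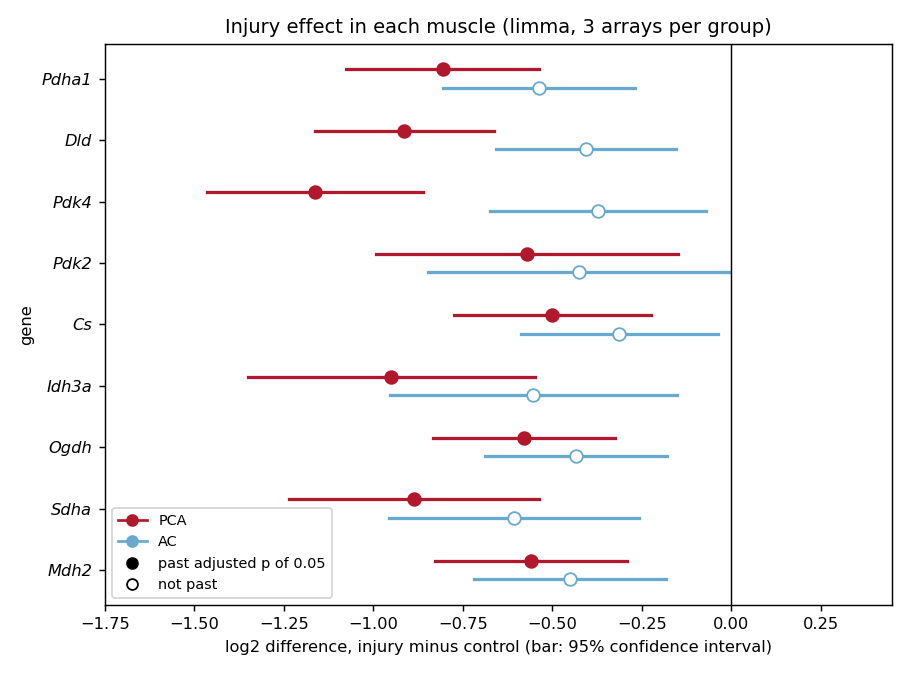
Log2 difference, injury minus control (x axis), with its 95% confidence interval for each of the 9 genes (y axis) in PCA (red) and AC (blue), 3 arrays per group. Filled points passed an adjusted p of 0.05. All 9 points are filled in PCA and none in AC, and every point lies below 0.

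Whether the injury effect differed between the muscles was tested as PCA effect minus AC effect. The value was negative for 9 of 9 genes, as for 58.9% of all genes, and none passed limma after adjustment (2 of 9 at an unadjusted p under 0.05, against 7.14% of all genes in the lower direction). Those 2 were Pdk4 at -0.79 ± 0.19 (unadjusted p = 0.00182, adjusted p = 0.0858, and 0.0469 to 0.617 over 25 alternatives) and Dld at -0.51 ± 0.16 (unadjusted p = 0.00928, adjusted p = 0.153, and 0.0636 to 0.759 over the alternatives). Of all genes 0.0279% passed in the lower direction. The other 7 genes lay between -0.40 for Idh3a and -0.11 for Mdh2. Their 95% intervals included 0 and reached as low as -0.96 for Idh3a and -0.49 for Mdh2, so these arrays do not show that the effects were alike.

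In uninjured rats Pdk4 was higher in PCA than in AC. It stood at 11.58, 11.56 and 11.32 in PCA controls, against 11.01, 10.67 and 10.93 in AC controls, without overlap (as for 17.7% of all genes in that direction), and the difference, PCA minus AC, was 0.62 ± 0.14 (adjusted p = 0.0168). Among all genes 3.24% were higher in control PCA past that threshold. The call was lost without the 3 arrays high in thyroid transcripts (0.57 ± 0.16, adjusted p = 0.0858), with the squamous mean as a covariate (0.90 ± 0.24, adjusted p = 0.345), without PCA control 1 (0.57 ± 0.16, adjusted p = 0.0617), without AC control 2 (0.52 ± 0.15, adjusted p = 0.0581) and relative to muscle structure genes (0.39 ± 0.16, adjusted p = 0.171). Over 26 alternatives the adjusted p was 0.00811 to 0.698, and 20 of them kept the call. The adipocyte mean was also higher in control PCA (8.57 to 9.01, against 7.35 to 7.46 in control AC), and with that mean as a covariate the difference was 0.84 ± 0.33 (adjusted p = 0.698). Other markers differed between the control muscles too. All 5 squamous, 5 of 10 macrophage, 2 of 7 fibroblast and 2 of 4 red cell markers were called lower in control PCA, and 7 of 9 adipocyte and 7 of 9 cartilage markers higher. The cartilage mean was 9.42 to 10.15 in control PCA and 8.36 to 9.11 in control AC, and the red cell mean 7.53 to 8.07 in control PCA and 8.92 to 9.75 in control AC. The fat and squamous means did not overlap between the control muscles, so those covariates can hardly be told apart from the muscle. The part of cartilage, macrophages, fibroblasts and red cells in the difference of Pdk4 was not tested. Dld was at 9.40, 9.46 and 9.53 in PCA controls and at 9.25, 9.11 and 9.02 in AC controls (0.34 ± 0.11, adjusted p = 0.0868). The remaining 7 genes had differences of 0.10 to 0.18, and their groups overlapped.

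Between the injured muscles no difference was called for the 9 genes. The differences, injured PCA minus injured AC, ran from -0.21 for Idh3a to 0.03 for Ogdh, and none passed limma (0 of 9 also at an unadjusted p under 0.05). In this comparison 0% of all genes passed, and at an unadjusted p under 0.05 2.39% were lower and 1.22% higher in injured PCA. The 95% interval for Pdk4 was -0.48 to 0.13.

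The order of the 4 group means was thus shared. For 7 of the 9 genes control PCA was highest, then control AC, injured AC and injured PCA, and for Ogdh and Mdh2 the last places were exchanged or level. Of the steps between neighbours in this order, those between control PCA and control AC, between control AC and injured AC and between the injured muscles were tested, and of these only the step of Pdk4 from control AC up to control PCA passed. Injured and control PCA, the ends of the order, differed for all 9.

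The letters just before the start sites were compared for the genes that fell together. RefSeq promoter windows of the build GRCr8, from 250 bases before to 50 after the start, were at hand for 8 of the 9 genes. Idh3a was not matched. Each window was searched on both strands for AAGGTCA (a site of oestrogen-related receptors) and an NRF1 motif with 1 free base. GGGCGG (a GC box) and a direct repeat of AGGNCA with 1 base between, the kind of site bound by PPAR dimers, were sought likewise. The NRF1 motif was found in 2 of the 8 windows, those of Sdha and Dld, against 7.24% of 12364 windows of genes on the array. It was in 1 of 14 windows of other TCA cycle genes, some of them not among the tested genes. Of 10 windows of other genes of pyruvate entry and use 0 held it. A GC box was found in 5 of 8, against 50.1%. The receptor site and the direct repeat were found in none, against 3.37% and 0.332%. None of the 11 matches overlapped a match of another motif. The windows of the genes with the NRF1 motif and of Pdk4, which had the largest fall, are given 5′ to 3′ on the gene's strand, with motif matches in capitals. They lie at chr1:30764303-30764602 (plus strand) for Sdha, chr6:53652298-53652597 (minus strand) for Dld and chr4:34568280-34568579 (minus strand) for Pdk4.
Sdha: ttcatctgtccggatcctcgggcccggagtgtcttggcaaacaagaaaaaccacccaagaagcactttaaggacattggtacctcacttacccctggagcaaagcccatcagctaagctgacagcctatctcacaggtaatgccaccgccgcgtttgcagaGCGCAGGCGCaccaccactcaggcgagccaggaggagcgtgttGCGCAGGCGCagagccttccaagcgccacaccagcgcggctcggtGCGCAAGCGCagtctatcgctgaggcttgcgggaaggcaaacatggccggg
Dld: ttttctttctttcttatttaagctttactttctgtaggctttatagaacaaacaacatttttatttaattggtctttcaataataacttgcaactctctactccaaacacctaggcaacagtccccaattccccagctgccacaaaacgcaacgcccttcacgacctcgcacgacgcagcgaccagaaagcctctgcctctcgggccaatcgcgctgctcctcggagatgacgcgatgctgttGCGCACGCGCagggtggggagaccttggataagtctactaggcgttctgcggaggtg
Pdk4: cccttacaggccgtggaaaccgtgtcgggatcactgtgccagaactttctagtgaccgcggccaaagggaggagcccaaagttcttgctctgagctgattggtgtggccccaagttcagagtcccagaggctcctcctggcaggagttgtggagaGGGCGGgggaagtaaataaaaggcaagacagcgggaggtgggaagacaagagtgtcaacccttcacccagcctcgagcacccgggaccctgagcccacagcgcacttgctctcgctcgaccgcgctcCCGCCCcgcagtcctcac
Sdha holds 3 matches of the NRF1 motif and Dld 1, all upstream of or across the start. Pdk4 holds 2 GC boxes, the second read on the opposite strand. A match is a string of letters and was not tested as a binding site.

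The rest of the pathway was described through lists of further genes. Of 12 other TCA cycle genes 11 fell in injured PCA, against 12.5% of all genes, with a median of -0.68. None of the list rose, against 13.3% of all genes. Mdh1, the cytosolic malate dehydrogenase, was at 10.14, 10.66 and 11.01 in injured PCA, against 11.62, 11.65 and 11.62 in PCA controls (-1.03 ± 0.17). Idh3b, a further subunit of the Idh3a enzyme, fell by 0.79 ± 0.13, and the NADP-dependent isocitrate dehydrogenase Idh2 by 0.67 ± 0.11. Sdhaf1, an assembly factor of succinate dehydrogenase named after its value was seen, was the one that did not pass (-0.08 ± 0.16). In the AC 0 of the 12 passed limma (9 lower at an unadjusted p under 0.05), and the median was -0.38. Mdh1 was at -0.64 ± 0.17 there.

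Of 13 other genes of pyruvate entry and use 11 fell in injured PCA and none rose, with a median of -0.78. The subunits of the mitochondrial pyruvate carrier fell, Mpc1 by 0.95 ± 0.17 and Mpc2 by 0.80 ± 0.16. So did the partners of Pdha1 and Dld in the complex. Pdhb, the second E1 subunit, was at 8.60, 8.70 and 9.20 in injured PCA, against 9.71, 9.68 and 9.67 in PCA controls (-0.85 ± 0.13), Dlat, the E2 core, fell by 0.99 ± 0.17, and Pdhx, which tethers E3, by 0.61 ± 0.07. Pdhx was the only complex subunit with a call in the AC. It was at 8.38, 8.38 and 8.43 in injured AC and at 8.73, 8.72 and 8.79 in AC controls (-0.35 ± 0.07, adjusted p = 0.0351). Pdhx was lower by less than Dlat or Pdhb, but its replicates were closer.

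Lactate dehydrogenases, which exchange pyruvate with lactate, belonged to the same list. Ldhb, the form typical of oxidative tissue, was at 8.92, 9.21 and 9.53 in injured PCA and at 10.37 on all 3 PCA controls, and fell by 1.15 ± 0.13 (adjusted p = 0.000313). In the AC it was at -0.44 ± 0.13 (adjusted p = 0.0936). Ldha, the form typical of glycolytic tissue and named after its value was seen, was the other gene of the list with a call in the AC (-0.97 ± 0.17, adjusted p = 0.0258), and fell in PCA by 0.78 ± 0.17. Ldhb was also higher in control PCA than in control AC (0.58 ± 0.13, adjusted p = 0.0165), the only call of the list in that comparison.

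The regulators of the complex did not all move the same way. Pdk1 was at 8.88, 8.95 and 9.25 in injured PCA, against 9.32, 9.37 and 9.34 in PCA controls, and fell by 0.32 ± 0.11 (adjusted p = 0.0478). Pdk3 was at 9.32, 9.29 and 9.14 in injured PCA and at 9.13, 8.47 and 8.79 in PCA controls. Its difference was positive, 0.45 ± 0.15 (adjusted p = 0.0507), and in the AC 0.38 ± 0.15 (adjusted p = 0.194), so that it passed in neither muscle. The phosphatase Pdp1, which reverses the kinases, fell in injured PCA by 0.47 ± 0.12 (adjusted p = 0.0133) and was at -0.15 ± 0.12 in the AC. The related Pdp2 was at -0.17 ± 0.20 in PCA.

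Pdk4 was also set against Pdha1, whose product its own acts on, within each array. The log2 value of Pdk4 minus that of Pdha1 was 0.28 ± 0.12 in injured PCA and 0.64 ± 0.17 in PCA controls (SD, n = 3 each). The difference was -0.36, and every injured array lay below every control (exact two-sided permutation p = 0.1, the smallest that 3 against 3 arrays allow). In the AC the difference was 0.16 (exact permutation p = 0.3). For Pdk2 minus Pdha1 the differences were 0.24 in PCA and 0.11 in AC (exact permutation p = 0.3 and 0.4).

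**Figure D4:**
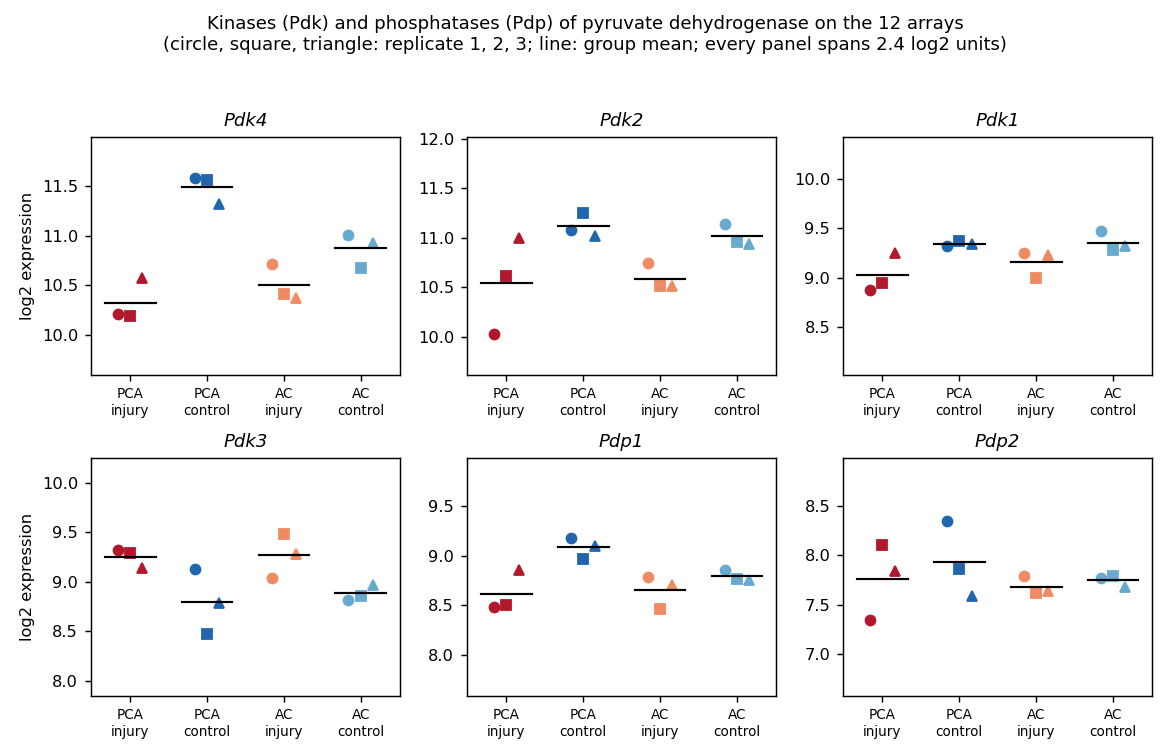
Log2 expression (y axis) of the 4 kinases and 2 phosphatases of pyruvate dehydrogenase on the 12 arrays, by group (x axis), with 1 point per array and a line at the group mean. Pdk4 has the widest gap between injured and control PCA, and Pdk3 is the one gene whose injured means lie above the control means in PCA and AC.

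**Figure D5:**
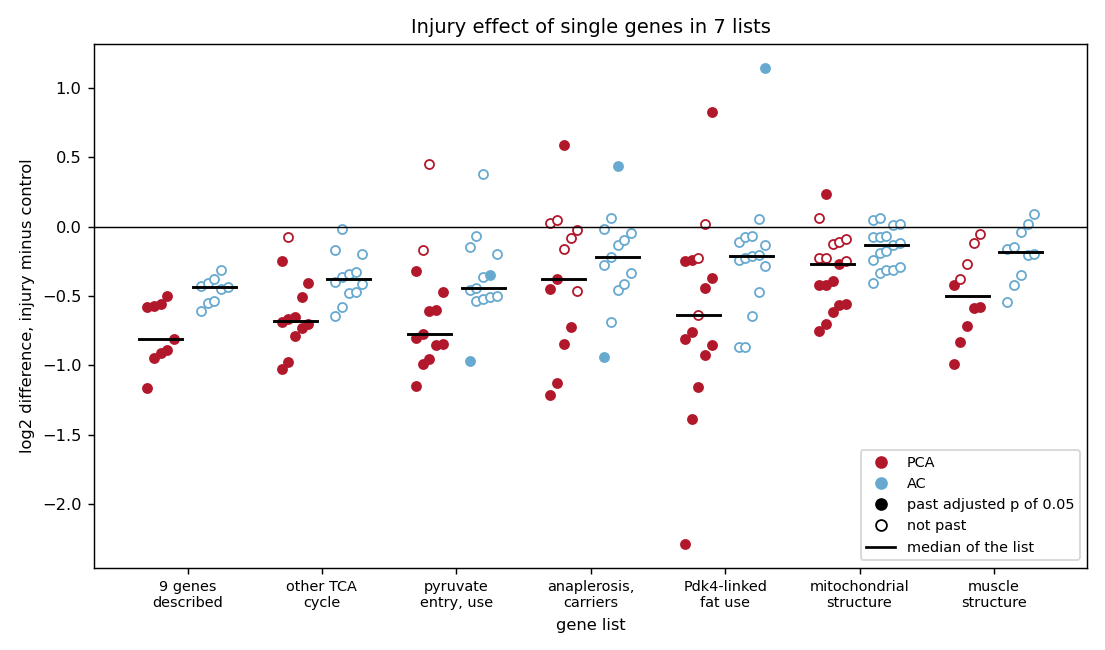
Log2 difference, injury minus control (y axis), of single genes in 7 lists (x axis), in PCA (red, left) and AC (blue, right), with a line at each list's median. Filled points passed an adjusted p of 0.05. The median of the 9 genes is -0.81 in PCA and -0.43 in AC, and that of the mitochondrial structure genes -0.27 and -0.13.

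The 9 genes varied together across arrays. Over the 12 arrays Pearson's r between any 2 of the 7 enzyme genes was 0.90 to 0.99, and with group means taken out 0.68 to 0.97. Pdk2 followed them with group means taken out (r of 0.79 to 0.93), Pdk4 less (0.35 to 0.70). These values are descriptions, since the points share groups and a common normalisation. Of 14310 named genes outside the list, those most like the mean standardised profile of the 7 enzyme genes were Ivd, a dehydrogenase of leucine breakdown, Echs1, a hydratase of fatty acid oxidation, Slc2a4, the insulin-responsive glucose transporter, Micos10, a cristae protein, and Clcn1, the muscle chloride channel (r of 0.990 to 0.996 over 12 arrays). Slc2a4 fell in injured PCA by 1.30 ± 0.24 and was at -0.78 ± 0.24 in the AC. Those most like Pdk4 were Pla2g12a, Ndufa6, Herc3, Etfdh and Prxl2b (r of 0.963 to 0.973), of which Ndufa6 is a subunit of respiratory complex I and Etfdh passes electrons from fatty acid oxidation to ubiquinone. Those most like Pdk2 were Chchd10, Phospho1, Pxmp4, Mylk2 and Uqcr11 (r of 0.973 to 0.981).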

How the data were processed

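The authors deposited log2 expression values, 1 for each probe set on each of 12 arrays. Per the submitters' processing notes RMA and Partek were used, with no role or version stated. Background step, filter and log base were not given in the sources used here, and base 2 was assumed because the method is RMA and the values span 2.57 to 14.04. The arrays share nearly the same median (7.11 to 7.17), so a difference is relative to the rest of the array. The number of arrays limits the precision.

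The platform annotation pairs 15103 of 27342 probe sets with 1 gene symbol and 317 with several, and leaves 11922 unnamed. The brightest probe set of each symbol was kept, giving 14329 genes, of which 14298 matched the RefSeq table by gene identifier. With limma 3.58.1 in R 4.3.3, lmFit and eBayes estimated 4 group means from all 12 arrays at once (8 residual and 3.14 prior degrees of freedom). Tests were two-sided, p-values were Benjamini-Hochberg adjusted over the 14329 genes, and 0.05 was the threshold. The fit was run on simulated data in which genes varied independently, as a check of the code only. Genes of these arrays vary together, so that run does not bear on the calls made here. Standard errors and 95% intervals come from limma, SDs from the 3 arrays of a group. Marker levels average log2 values over the genes of a list. Plots were made in matplotlib 3.10.9 (Python 3.11.15).

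The genes described, the lists around them, the tests and the alternatives were chosen with earlier results of these data known. From each list the first gene and the 3 with the smallest p in injured PCA could be named, besides the kinases, phosphatases, carriers and subunits of pyruvate dehydrogenase. The 5 genes most like the enzymes, Pdk4 and Pdk2 were named by Pearson correlation over the 12 arrays. The correlation of deviations between same-numbered arrays was -0.24, -0.38 and 0.08 for injured and control PCA, 0.15, 0.12 and 0.04 for injured and control AC, -0.05, -0.34 and 0.03 for control PCA and AC, and -0.39, 0.34 and 0.27 for injured PCA and AC. No comparison had all 3 above 0.1, so replicate numbers were not used as pairs. Alternatives changed the normalization, filter, probe set rule, prior, weights, samples, scaling and covariates, or left out each array in turn.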

Additional observations from a re-analysis of the deposited data

How the results depend on the processing

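All 26 other fits kept the 9 genes' signs in injured PCA and AC, but several cannot alter a difference. Of the 9 genes called in PCA, 4 stayed relative to muscle structure genes, 5 with the squamous level as a covariate and 0 with the adipocyte level as a covariate, and leaving out single arrays gave 7 to 9. The 9 differences were smaller relative to muscle genes (Cs at -0.0063) and larger with the squamous covariate, and both covariates widened the standard errors. It was 7 without the 3 arrays high in thyroid transcripts. With the replicate block it was 8, Pdk2 being lost (adjusted p = 0.0808), and the block changed no other call of the 9 genes. For the AC, where none was called, 1 passed after repeated quantile normalization, with arrays centred on their medians, with the filter on dim genes and with the trend and robust prior, 5 with the AC groups alone and 6 with array weights, and leaving out single arrays gave 0 to 5. For the difference of the injury effects 1 passed with array weights and 0 to 0 without single arrays. For control PCA against control AC, 1 in the reported fit, 2 passed after repeated quantile normalization and with array weights, and 0 at an adjusted p of 0.01, without the 3 arrays, relative to muscle structure genes and with the squamous or adipocyte level as a covariate. Leaving out single arrays gave 0 to 2 there.

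Relative to muscle structure genes, PCA minus AC effects became 0.11 for Cs, 0.15 for Ogdh, 0.02 for Sdha, 0.19 for Mdh2, 0.03 for Pdha1 and 0.16 for Pdk2, and relative to mitochondrial genes 0.0194 for Ogdh, 0.0561 for Mdh2 and 0.0227 for Pdk2. Without single arrays that of Pdk2 ran from -0.37 to 0.115, the upper end without PCA injury 1. Between control muscles the values relative to muscle structure genes were -0.0617 for Cs, -0.0417 for Idh3a, -0.045 for Ogdh, -0.0783 for Sdha, -0.115 for Mdh2, -0.0617 for Pdha1 and -0.12 for Pdk2, and Pdk2 was at -0.0035 relative to mitochondrial genes and -0.0077 with the adipocyte covariate. Between injured muscles, values relative to muscle genes were 0.0517 for Cs and 0.035 for Pdk2, and relative to mitochondrial genes 0.0359 and 0.0192. Without single arrays they ran from -0.1283 (without PCA injury 3) to 0.0867 (without PCA injury 1) for Cs, from -0.3367 to 0.0383 for Sdha, from -0.24 to 0.015 for Pdha1 and from -0.2667 to 0.2183 for Pdk2, with the same arrays at the ends. Without AC injury 1 Cs was at 0.005 and Pdk2 at 0.0367. Ogdh ran from -0.0733 (without PCA injury 3) to 0.1567, and was at -0.0133 without AC injury 2 and -0.03 without the 3 arrays. These passed no test. Scaling to lists shifts all genes alike. Other causes were not tested.

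Over all genes in PCA 1900 rose and 1797 fell in the reported fit, against 6970 and 223 relative to muscle structure genes, 5643 and 522 relative to mitochondrial genes, 144 and 168 with the squamous and 1 and 4 with the adipocyte covariate, 1263 and 994 with the PCA groups alone, 1243 and 1092 without the 3 arrays, and 1069 and 796 at an adjusted p of 0.01. In the AC 165 rose and 109 fell, against 393 and 310 with array weights, 326 and 293 alone, 34 and 25 with the replicate block, 7 and 3 without the 3 arrays, 90 and 27 relative to muscle structure genes, 204 and 63 relative to mitochondrial genes, 88 and 44 with the squamous and 89 and 60 with the adipocyte covariate, and 10 and 7 at 0.01, and the sum was 13 to 663 without single arrays. Between control muscles 464 were higher and 1059 lower in PCA, against 638 and 938 with centred arrays, 835 and 1601 with all probe sets tested, 1120 and 1506 with array weights, 184 and 628 without the 3 arrays, 32 and 1132 relative to muscle structure genes, 90 and 1307 relative to mitochondrial genes, 79 and 481 at 0.01, 1 and 1 with the squamous and 0 and 0 with the adipocyte covariate, and the sum was 714 to 1813 without single arrays. For the difference of effects 18 were higher and 4 lower, against 29 and 10 after repeated quantile normalization, 11 and 4 with centred arrays, 49 and 11 with the dim filter, 70 and 14 with all probe sets, 27 and 8 with the trend and robust prior, 256 and 92 with array weights, 444 and 4 relative to muscle structure genes, 464 and 11 relative to mitochondrial genes, 0 and 1 with the squamous covariate and 0 and 0 with the adipocyte covariate, the block, a threshold of 0.01 or the 3 arrays left out. The sum was 0 to 406 without single arrays. With 3 arrays per group small differences can be missed.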

Other observations

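The genes around the cycle did not all move with it. Of 13 genes of anaplerosis and metabolite carriage 6 fell and 1 rose in injured PCA, with a median of -0.38, against 12.5% of all genes that fell and 13.3% that rose. The mitochondrial malic enzymes, which turn malate into pyruvate, went opposite ways. Me1, a further malic enzyme of the list, was at 9.45, 10.23 and 10.44 in injured PCA, against 10.57, 10.69 and 10.26 in PCA controls. Me3, a mitochondrial form, was at 7.18, 7.60 and 7.87 in injured PCA, against 8.69, 8.82 and 8.78 in PCA controls, and fell by 1.21 ± 0.19 (limma adjusted p = 0.00144). Me2, the other mitochondrial form, was at 8.82, 8.74 and 8.70 in injured PCA and at 8.35, 8.09 and 8.06 in PCA controls, and rose by 0.59 ± 0.09 (adjusted p = 0.00123). In the AC, where 0.761% of all genes fell and 1.15% rose, these 2 were the only calls of the list, Me3 at -0.94 ± 0.19 (adjusted p = 0.0408) and Me2 at 0.44 ± 0.09 (adjusted p = 0.0411). Pyruvate carboxylase (Pc), which is also on the pyruvate list, fell in PCA by 0.85 ± 0.17, and the oxoglutarate carrier Slc25a11 by 0.72 ± 0.13.

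Of 15 genes linked to Pdk4 through fatty acid use or its known regulators, 11 fell and 1 rose in injured PCA, with a median of -0.63, read against the same shares. The fatty acid carrier Fabp3 fell by 2.29 ± 0.31, the receptor Ppara fell by 1.39 ± 0.24 and the factor Klf15 fell by 0.85 ± 0.11. The gene that rose was Angptl4, a secreted lipase inhibitor that PPAR receptors are known to induce, as they do Pdk4. It was at 8.44, 7.82 and 8.21 in injured PCA, against 7.37, 7.49 and 7.13 in PCA controls (0.83 ± 0.22, adjusted p = 0.0166). In the AC it was the only call of the list, at 7.67, 8.38 and 8.15 in injured AC and 6.90, 6.61 and 7.25 in AC controls (1.15 ± 0.22, limma adjusted p = 0.0311).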
